A study of Homo sapiens with 4 samples.

Results

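The 43 genes described here encode integrins, laminins, collagens and other matrix proteins, the receptors that bind them, and proteins of cell-cell junctions. They were chosen by symbol, and each symbol was found on a single line of the 57979 gene lines with values, so the 43 are all accounted for. By role they comprise 8 integrin subunits, 5 laminin chains, 9 other matrix proteins, 5 other matrix receptors, 6 cadherins, catenins and EPCAM, 5 desmosome proteins and 5 tight junction proteins. RNA was sequenced from cells labelled HepG2, a line derived from a human liver cancer and grown in DMEM with fetal bovine serum, in 2 libraries labelled WT (wild type) and 2 labelled TXNDC9-KO, in which the gene TXNDC9 had been targeted with CRISPR-Cas9 through guides carried by a lentiviral plasmid. TXNDC9 is a thioredoxin domain protein that binds a chaperonin which folds actin and tubulin. The comparison asks which of the 43 genes differed in mRNA level between targeted and wild-type cells. For a protein blot of the HepG2 knockout, the study describes flow-sorted infected cells that carried Cas9 with a guide or the vector alone. Whether these libraries came from such cells, which guide the targeted cells received and whether the 2 libraries of a group came from separate cultures is not given in the sources used here, so the p-values measure the spread between these libraries, which may be technical.

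Integrins are pairs of an alpha and a beta chain that span the cell membrane and hold the cell to the matrix, and each alpha chain narrows the choice of ligand. Laminins are trimers of an alpha, a beta and a gamma chain that form basement membranes together with type IV collagen, perlecan, agrin and nidogen. Neighbouring cells are joined by cadherins, which are anchored through catenins at adherens junctions and through plakoglobin, plakophilin and desmoplakin at desmosomes, and by claudins and occludin, which seal tight junctions over the scaffold ZO-1.

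The levels were FPKM, in which the fragments of a gene are divided by the length of its transcript and by the size of the library. Counts were not given, so library depths are unknown. Summed over genes, FPKM was 805816 and 971102 in the WT libraries and 535973 and 568280 in the TXNDC9-KO libraries. TXNDC9 itself stood at 35.1 and 37.3 FPKM in WT against 21.9 and 27.6 FPKM in TXNDC9-KO. Its log2 fold change was −0.55 (SE 0.14, adjusted p = 0.0145 with limma and Benjamini-Hochberg adjustment), which did not pass 0.01, and it was 0.12 once each library was rescaled to the same sum. An FPKM over the whole gene does not show whether the coding sequence was disrupted. The study reports reduced TXNDC9 on its protein blot of HepG2 knockout cells, and these mRNA values do not measure protein. None of the 10 markers of hepatocytes examined (ALB, AFP, APOA1, APOA2, APOB, SERPINA1, TTR, TF, FGB and HNF4A) averaged above 1 FPKM, the highest value of any of them was 0.449 FPKM, and APOA1 was listed at 0 in all 4 libraries. Their summed level was 0.553 to 0.733 FPKM in WT and 0.194 to 0.365 FPKM in TXNDC9-KO. All 4 libraries thus went against the label HepG2 in this respect, and the cells are referred to by their labels only.

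Markers of other cell types were also measured. Of 9 stellate cell and fibroblast markers 5 averaged above 1 FPKM, and the list summed to 54.8 to 58.7 FPKM in WT and 38.4 to 42.0 FPKM in TXNDC9-KO, while COL1A2 was listed at 0 throughout. Of 7 endothelial markers 1 averaged above 1 FPKM (CDH5), with sums of 0.871 to 1.31 FPKM and 3.93 to 4.52 FPKM, and KDR and TIE1 were at 0. Of 6 leukocyte markers 1 averaged above 1 FPKM (CD68), with sums of 4.13 to 6.37 FPKM and 6.26 to 7.53 FPKM, and CD3E and MS4A1 were at 0. Vimentin and 6 regulators of the epithelial-mesenchymal transition summed to 819 to 956 FPKM in WT and 397 to 414 FPKM in TXNDC9-KO, and 6 of the 7 averaged above 1 FPKM. The part of any of these lists in the changes below was not tested. In bulk RNA, fewer cells of a type and less RNA per cell cannot be told apart.

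Of the 43 genes, 34 averaged above 1 FPKM over the 4 libraries and entered the test, which was run on log2(FPKM + 0.1) over all 13246 genes above that level. The added 0.1 makes fold changes of low genes smaller than they are. A gene was called when its adjusted p was under 0.01 and its change at least 2-fold. The 7 genes called higher in TXNDC9-KO (ITGA2, ITGAV, DAG1, CTNND1, DSP, DSG2 and TJP1) encode integrin alpha chains, a matrix receptor and junction proteins and were 20.6% of the 34 against 14.2% of all genes tested. That count includes ITGA2, which entered the test only through its TXNDC9-KO values and so had to differ, and the share is given as a description. The 4 called lower (LAMA5, LAMB2, VTN and COL18A1) all encode secreted matrix proteins and were 11.8% of the 34 against 15.3% of all genes. The other 23 were not called. Both TXNDC9-KO values lay above both WT values for 18 members (52.9%, against 40.1% of all genes tested) and below them for 12 (35.3%, against 45.9%), and the groups overlapped for LAMA3, SDC1, CD44 and CDH2. The median log2 fold change was 0.28 over the 34 and −0.09 over all genes tested. With 2 libraries in each group the smallest p of an exact permutation test is 0.33, so the calls rest on the spread that limma shares across genes. With either TXNDC9-KO library left out, the lone library was assumed to vary like the other group. Calls were then lost over all genes tested, not only among the members. By size of change alone, with no test, 7 members were at least 2-fold higher and 4 at least 2-fold lower in each of these 2 fits. The share of all genes at that size was not computed.

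**Figure D1:**
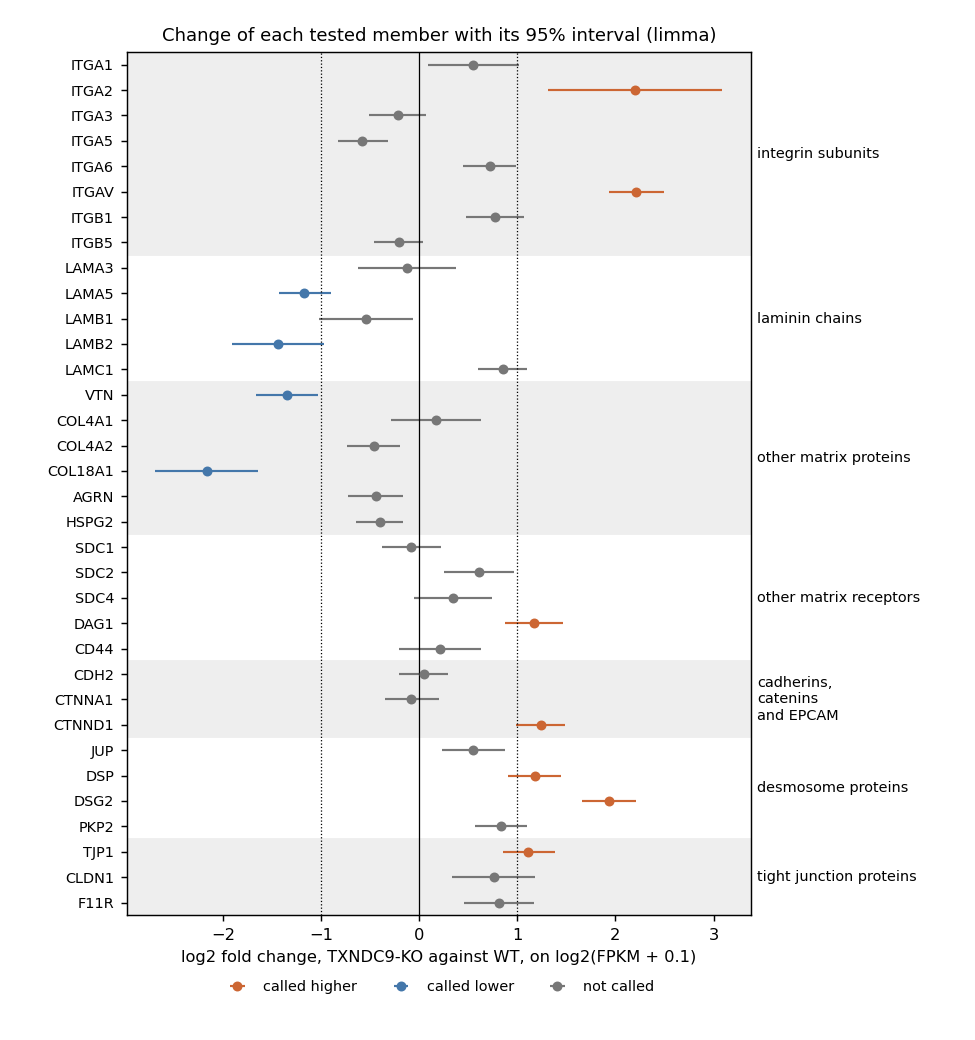
Log2 fold change of TXNDC9-KO against WT for each of the 34 members tested, with its 95% interval from limma, grouped by role; dotted lines mark a 2-fold change in either direction. The 7 members called higher lie between 1.11 and 2.21 and the 4 called lower between −2.16 and −1.17; LAMA5, LAMB2 and VTN kept their sign but were not called once libraries were rescaled to the same sum.

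The stretches of genome just before the start sites of 3 members called higher, 3 called lower and the shared start region of the type IV collagen pair are shown because the 6 were the members still called after the correction for length and GC content described below, and the pair shares its start region. Each is 100 bases of RefSeq's GRCh38.p14 assembly outside annotated exons, written 5′ to 3′ on the strand of the gene, and on the strand of COL4A2 for the pair. The last base lies 47 bases from the start site for ITGAV, 69 for LAMB2, 27 for the pair and 1 for the others. Capitals mark the GC box GGGCGG or its reverse complement CCGCCC, the letters that the factor SP1 binds, which may overlap each other, and the E-box CACGTG, the letters that MYC binds with its partner MAX, which reads alike on both strands.
ITGAV (chr2:186589910-186590009, plus strand): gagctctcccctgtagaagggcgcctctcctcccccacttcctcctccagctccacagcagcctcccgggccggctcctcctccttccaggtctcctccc
DSG2 (chr18:31498077-31498176, plus strand): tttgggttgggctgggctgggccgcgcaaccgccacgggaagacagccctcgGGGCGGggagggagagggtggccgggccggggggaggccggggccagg
DAG1 (chr3:49470032-49470131, plus strand): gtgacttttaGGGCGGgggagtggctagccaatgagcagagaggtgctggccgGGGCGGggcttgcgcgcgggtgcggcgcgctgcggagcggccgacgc
LAMA5 (chr20:62367313-62367412, minus strand): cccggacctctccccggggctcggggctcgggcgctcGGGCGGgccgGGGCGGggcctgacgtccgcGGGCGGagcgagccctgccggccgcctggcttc
LAMB2 (chr3:49133119-49133218, minus strand): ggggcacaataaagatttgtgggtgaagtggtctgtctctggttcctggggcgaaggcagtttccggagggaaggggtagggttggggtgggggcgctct
COL18A1 (chr21:45405065-45405164, plus strand): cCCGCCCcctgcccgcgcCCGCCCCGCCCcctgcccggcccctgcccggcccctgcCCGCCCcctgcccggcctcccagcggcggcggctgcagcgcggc
COL4A1 and COL4A2 (chr13:110307158-110307257, plus strand): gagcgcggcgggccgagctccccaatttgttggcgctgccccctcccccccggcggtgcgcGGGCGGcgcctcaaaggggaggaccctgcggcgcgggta

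The GC content of these stretches ran from 60% (LAMB2) to 91.0% (COL18A1), and the number of GC boxes from 0 (ITGAV and LAMB2) to 4 (COL18A1), while the E-box was in none of the 7. Over windows from 250 bases before to 50 after a RefSeq start site, which 33 of the 43 members have, the E-box was in 1 of the 28 tested members (3.57%, ITGA6) and in 7.26% of all 35116 windows. It was in 0 of the 6 called higher and 0 of the 4 called lower that have a window. The GC box was in 25 of 28 tested members (89.3%) and 45% of all windows, in 5 of 6 called higher and in 3 of 4 called lower. All windows were counted whether or not their gene was above the filter, and some genes have several, while each member counted once. The shares are thus of unlike sets, and enrichment was not tested. The whole window of LAMB2 held a GC box, unlike its stretch above, and that of ITGAV did not. No match means only that these letters are not in this window.

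The 8 integrin subunits were all above the filter. Over all genes tested, 14.2% were called higher and 15.3% lower. ITGAV and ITGA2 were called higher in TXNDC9-KO, ITGA5, ITGA3 and ITGB5 had lower values than in WT without being called, and the common beta chain ITGB1 was, with JUP and CTNNA1, among the members with the highest FPKM. The median of the group was 0.64 on the log2 scale, 1.32 as TPM and 0.00 after the correction for length and GC content, so the positive median was not kept under that correction. ITGAV (ENSG00000138448), the alpha chain of vitronectin and fibronectin receptors, was 4.34 and 3.97 FPKM in WT and 18.8 and 20.5 FPKM in TXNDC9-KO. Its means were 4.15 ± 0.262 and 19.6 ± 1.21 FPKM (SD, n = 2). On the log2 scale the fold change was 2.21 (SE 0.11, adjusted p = 4.86e-04 with limma and Benjamini-Hochberg adjustment). Both TXNDC9-KO values lay far above both WT values, and the gap between the groups was larger than the difference within either. ITGA2 (ENSG00000164171), the collagen-binding alpha chain that pairs with ITGB1, was 0.315 and 0.335 FPKM in WT and 1.75 and 1.97 FPKM in TXNDC9-KO, and passed the filter only through the TXNDC9-KO values. Its log2 fold change was 2.20 (SE 0.36, adjusted p = 0.00302 with limma and Benjamini-Hochberg adjustment), and 1.25 with an adjusted p of 0.0260 after the correction, no longer a call.

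ITGB1, the beta chain shared by most of these alpha chains, was 195 and 185 FPKM in WT and 319 and 331 FPKM in TXNDC9-KO. The groups did not overlap, and the log2 fold change of 0.77 (SE 0.12, adjusted p = 0.0024 with limma and Benjamini-Hochberg adjustment) was under 2-fold and so no call. ITGA6, the alpha chain of laminin receptors, was 6.32 and 6.32 FPKM in WT and 10.9 and 10.1 FPKM in TXNDC9-KO, a log2 fold change of 0.72 (SE 0.11) that became 0.00 after the correction. ITGA1, which like ITGA2 forms a collagen receptor with ITGB1, was 8.97 and 13.1 FPKM in WT and 15.5 and 16.4 FPKM in TXNDC9-KO, with a log2 fold change of 0.55 (SE 0.19) and of −0.58 after the correction. The other 3 subunits had lower values in TXNDC9-KO. ITGA5, the alpha chain of the classical fibronectin receptor, was 17.8 and 19.0 FPKM in WT and 11.9 and 12.7 FPKM in TXNDC9-KO, with a log2 fold change of −0.58 (SE 0.10, adjusted p = 0.00429 with limma and Benjamini-Hochberg adjustment) that was under 2-fold and was 0.10 as TPM. ITGA3, another alpha chain of laminin receptors, was 45.1 and 52.7 FPKM against 41.8 and 41.8 FPKM (log2 fold change −0.22, 95% interval −0.51 to 0.07). ITGB5, a partner of ITGAV in vitronectin receptors, was 92.0 and 91.4 FPKM against 77.3 and 80.9 FPKM (log2 fold change −0.21, 95% interval −0.46 to 0.04). Rescaled to TPM, the log2 fold changes of ITGA3 and ITGB5 were 0.46 and 0.47.

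**Figure D2:**
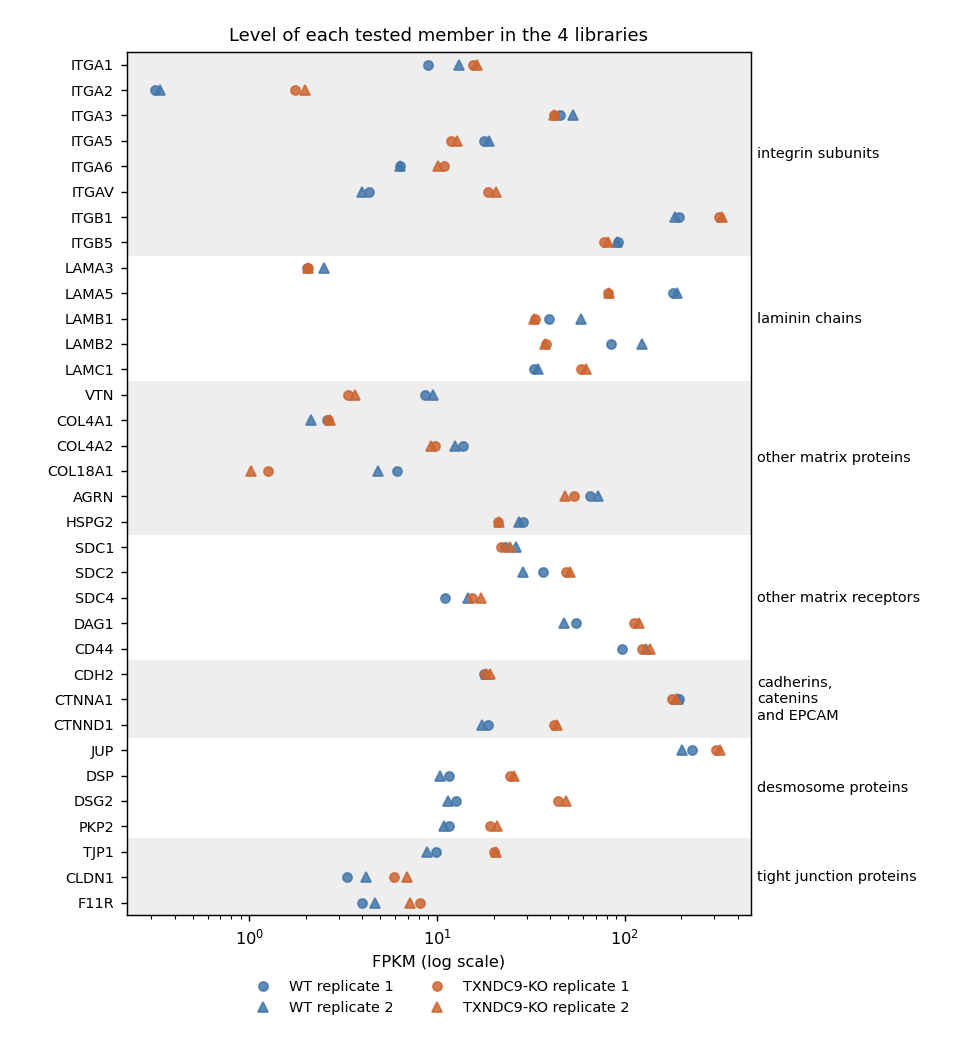
FPKM on a log scale of the 34 members tested in each library, grouped by role, with WT in blue, TXNDC9-KO in orange, circles for replicate 1 and triangles for replicate 2. Libraries of a group lie close together for most genes, and the 2 groups stand furthest apart for ITGA2, ITGAV, COL18A1 and DSG2.

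The 5 laminin chains did not share a direction. Of all genes tested, 15.3% were called lower. The alpha chain LAMA5 and the beta chain LAMB2 were called lower in TXNDC9-KO, LAMB1 and LAMA3 had lower means without being called, and the only gamma chain of the list, LAMC1, stood higher in both TXNDC9-KO libraries. The median of the 5 was −0.54 on the log2 scale, −0.97 after the correction and 0.14 as TPM, so its sign flips with that scaling. LAMA5 (ENSG00000130702), the alpha chain of the widespread laminins of adult basement membranes, was 180 and 189 FPKM in WT and 81.5 and 82.8 FPKM in TXNDC9-KO. Its means were 184 ± 5.84 and 82.2 ± 0.962 FPKM (SD, n = 2). On the log2 scale the fold change was −1.17 (SE 0.11, adjusted p = 6.16e-04 with limma and Benjamini-Hochberg adjustment). LAMB2 (ENSG00000172037), the beta chain found beside LAMA5 in mature basement membranes, was 84.7 and 124 FPKM in WT and 38.1 and 37.4 FPKM in TXNDC9-KO, a log2 fold change of −1.44 (SE 0.19, adjusted p = 0.00149 with limma and Benjamini-Hochberg adjustment). The WT libraries differed more from each other for LAMB2 than the TXNDC9-KO libraries did, but the groups were well separated. Both stayed called after the correction (−1.01 and −1.34), whereas the TPM values of −0.49 and −0.76 were under 2-fold.

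LAMB1, the other beta chain, was 39.5 and 58.5 FPKM in WT and 33.1 and 33.0 FPKM in TXNDC9-KO. Its WT libraries differed by 0.56 on the log2 scale, the largest difference between replicates among the 34 members tested, and its log2 fold change of −0.54 (SE 0.19, adjusted p = 0.0481 with limma and Benjamini-Hochberg adjustment) did not pass 0.01. LAMC1, the gamma chain of most laminins, was 32.7 and 34.3 FPKM in WT and 58.5 and 62.3 FPKM in TXNDC9-KO. This log2 fold change of 0.85 (SE 0.10, adjusted p = 0.0011 with limma and Benjamini-Hochberg adjustment) was under 2-fold, and it was 0.21 after the correction. LAMA3, the alpha chain of epithelial laminins, was 2.04 and 2.49 FPKM in WT and 2.07 and 2.07 FPKM in TXNDC9-KO, and the groups overlapped (log2 fold change −0.12, 95% interval −0.62 to 0.38).

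Among the 9 other matrix proteins, VTN and COL18A1 were called lower, 4 were not called and 3 were under the filter. Calls of lower made up 15.3% of all genes tested. The median of the 6 tested was −0.45, −0.36 after the correction and 0.23 as TPM, where the sign again flips. VTN (ENSG00000109072), which encodes vitronectin, the adhesive protein bound by ITGAV with ITGB5, was 8.66 and 9.47 FPKM in WT and 3.37 and 3.64 FPKM in TXNDC9-KO. The means of 9.07 ± 0.578 and 3.51 ± 0.194 FPKM (SD, n = 2) gave a log2 fold change of −1.35 (SE 0.13, adjusted p = 6.51e-04 with limma and Benjamini-Hochberg adjustment), and −0.53 after the correction, which was no longer a call. Another annotated gene covers 20.2% of the VTN transcript on the same strand, and was at 0.692 and 1.67 FPKM in WT and listed at 0 in TXNDC9-KO. COL18A1 (ENSG00000182871), a basement membrane collagen whose end fragment is endostatin, was 6.11 and 4.82 FPKM in WT and 1.26 and 1.02 FPKM in TXNDC9-KO. It had the most negative change of the members, a log2 fold change of −2.16 (SE 0.21, adjusted p = 7.10e-04 with limma and Benjamini-Hochberg adjustment), and was called lower after the correction (−1.67) and as TPM (−1.53) too. SLC19A1, a folate transporter gene on the opposite strand, covers 28.9% of the COL18A1 transcript and itself was 63.2 and 62.7 FPKM in WT and 29.0 and 28.3 FPKM in TXNDC9-KO. Use of strand in the authors' counting is not given in the sources used here, so reads of the 2 genes in that stretch cannot be told apart.

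The type IV collagen pair, whose start sites lie 127 bases apart on opposite strands of chromosome 13, differed in level and was not called in either member. COL4A2 was 13.8 and 12.5 FPKM in WT and 9.75 and 9.23 FPKM in TXNDC9-KO, with a log2 fold change of −0.46 (SE 0.11, adjusted p = 0.0116 with limma and Benjamini-Hochberg adjustment). COL4A1 was 2.58 and 2.14 FPKM in WT and 2.62 and 2.70 FPKM in TXNDC9-KO (log2 fold change 0.17, 95% interval −0.29 to 0.63). As TPM the 2 values were 0.21 and 0.83, and after the correction −0.35 and −0.07. The heparan sulfate proteoglycans of basement membranes had log2 fold changes near that of COL4A2. AGRN (agrin) was 65.4 and 71.6 FPKM in WT and 53.3 and 47.8 FPKM in TXNDC9-KO, with a log2 fold change of −0.44 (SE 0.11) and of 0.24 as TPM. HSPG2 (perlecan) was 28.8 and 27.3 FPKM in WT and 21.1 and 21.3 FPKM in TXNDC9-KO, with a log2 fold change of −0.40 (SE 0.10) and of 0.28 as TPM. Neither passed 0.01. FN1, which encodes fibronectin, was 0.730 and 0.528 FPKM in WT and 0.343 and 0.343 FPKM in TXNDC9-KO and was not tested. The cartilage collagen COL2A1 was listed at 0 in both WT libraries and at 0.176 and 0.0165 FPKM in TXNDC9-KO, and nidogen-1 (NID1) did not exceed 0.0169 FPKM in any library.

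Of the 5 other matrix receptors, DAG1 was called higher and the 3 syndecans and CD44 were not called. Calls of higher made up 14.2% of all genes tested. DAG1 (ENSG00000173402), which encodes dystroglycan, a receptor for the laminin alpha chains, agrin and perlecan, was 55.2 and 47.5 FPKM in WT and 112 and 119 FPKM in TXNDC9-KO. The means of 51.4 ± 5.39 and 115 ± 5.08 FPKM (SD, n = 2) gave a log2 fold change of 1.17 (SE 0.12, adjusted p = 7.72e-04 with limma and Benjamini-Hochberg adjustment), and DAG1 stayed called after the correction (1.03) and as TPM (1.85). It was the only member called higher whose transcript has a GC content above the median of all genes tested, at 54.8%. The syndecans are membrane proteoglycans that act beside integrins as receptors for the matrix. SDC2 was 36.8 and 28.6 FPKM in WT and 48.6 and 50.9 FPKM in TXNDC9-KO (log2 fold change 0.61, SE 0.14). SDC4 was 11.1 and 14.7 FPKM against 15.3 and 17.2 FPKM (log2 fold change 0.35, 95% interval −0.05 to 0.74), so that its groups barely separated. SDC1 was 22.9 and 26.3 FPKM against 21.97 and 24.59 FPKM, with overlapping groups (log2 fold change −0.08, 95% interval −0.38 to 0.22). CD44, the hyaluronan receptor, was 96.5 and 129 FPKM against 123 and 136 FPKM, and its groups overlapped as well (log2 fold change 0.21, 95% interval −0.21 to 0.63).

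Of the 3 cadherins only N-cadherin (CDH2) was above the filter. E-cadherin (CDH1), the cadherin of epithelia, lay between 0.0199 and 0.0879 FPKM, and liver-intestine cadherin (CDH17) and the epithelial adhesion protein EPCAM were listed at 0 in all 4 libraries. CDH2 was 17.9 and 18.3 FPKM in WT and 18.1 and 19.2 FPKM in TXNDC9-KO, with overlapping groups and a log2 fold change of 0.05 (95% interval −0.20 to 0.29). CTNNA1, the alpha-catenin that ties cadherins to actin, was 194 and 193 FPKM against 179 and 187 FPKM (log2 fold change −0.08, 95% interval −0.35 to 0.20). The groups of CTNNA1 did not overlap, but the interval spanned 0. CTNND1 (ENSG00000198561), which encodes p120-catenin, the protein that holds cadherins at the membrane, was 18.7 and 17.4 FPKM in WT and 42.1 and 43.6 FPKM in TXNDC9-KO. It was called higher, with means of 18.1 ± 0.925 and 42.8 ± 1.07 FPKM (SD, n = 2) and a log2 fold change of 1.24 (SE 0.10, adjusted p = 5.38e-04 with limma and Benjamini-Hochberg adjustment). After the correction the value was 0.56, under 2-fold. Gene models of release 44 of GENCODE cover 78.6% of the CTNND1 transcript on the same strand, and the gene model among them that the table lists did not exceed 0.123 FPKM.

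The desmosome genes had the most positive median of the 7 role groups, 1.01 on the log2 scale, 1.69 as TPM and 0.72 after the correction. All 4 tested had higher values in both TXNDC9-KO libraries, as did 40.1% of all genes tested. DSG2 and DSP were called, beside 14.2% of all genes called higher. DSG2 (ENSG00000046604), the desmoglein made in most cells with desmosomes, was 12.7 and 11.5 FPKM in WT and 44.1 and 48.7 FPKM in TXNDC9-KO. Its means were 12.1 ± 0.823 and 46.4 ± 3.29 FPKM (SD, n = 2). On the log2 scale the fold change was 1.93 (SE 0.11, adjusted p = 4.87e-04 with limma and Benjamini-Hochberg adjustment), and it stayed called after the correction (1.19). DSP (ENSG00000096696), which encodes desmoplakin, the link from the plaque to intermediate filaments, was 11.6 and 10.4 FPKM in WT and 24.3 and 25.5 FPKM in TXNDC9-KO. Its log2 fold change was 1.18 (SE 0.11, adjusted p = 6.23e-04 with limma and Benjamini-Hochberg adjustment), and 0.41 after the correction, which was no longer a call. JUP, which encodes plakoglobin, a catenin of both junction types, was 229 and 201 FPKM against 306 and 320 FPKM. Its log2 fold change of 0.55 (SE 0.13, adjusted p = 0.0120 with limma and Benjamini-Hochberg adjustment) did not pass 0.01. After the correction it was 0.98, and the GC content of its transcript was 61.5%. PKP2, a plakophilin of the plaque, was 11.5 and 10.9 FPKM against 19.1 and 21.0 FPKM, with a log2 fold change of 0.83 (SE 0.11, adjusted p = 0.00137 with limma and Benjamini-Hochberg adjustment) that was under 2-fold. The desmocollin DSC2, the usual partner of DSG2, was listed at 0 in all 4 libraries.

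All 3 tested tight junction genes had higher values in both TXNDC9-KO libraries, and TJP1 was called. Over all genes tested these shares were 40.1% and, for calls of higher, 14.2%. TJP1 (ENSG00000104067), which encodes the scaffold ZO-1, was 9.82 and 8.84 FPKM in WT and 20.1 and 20.5 FPKM in TXNDC9-KO. Its means were 9.33 ± 0.698 and 20.3 ± 0.306 FPKM (SD, n = 2). On the log2 scale the fold change was 1.11 (SE 0.11, adjusted p = 6.71e-04 with limma and Benjamini-Hochberg adjustment). It lost the call after the correction (0.35) and when each library was centred on its median. CLDN1, a sealing claudin, was 3.32 and 4.20 FPKM against 5.93 and 6.89 FPKM (log2 fold change 0.76, SE 0.17, adjusted p = 0.00936 with limma and Benjamini-Hochberg adjustment). F11R, the junctional adhesion molecule A, was 3.97 and 4.68 FPKM against 8.11 and 7.22 FPKM (log2 fold change 0.81, SE 0.14, adjusted p = 0.00391 with limma and Benjamini-Hochberg adjustment). Both were under 2-fold. A gene model that covers 39.9% of the F11R transcript on the same strand was at 0.0766 FPKM and 0 in WT and at 1.45 and 1.90 FPKM in TXNDC9-KO, so the F11R values are uncertain. OCLN (occludin) lay just under the filter, at 0.966 and 0.853 FPKM in WT and 0.749 and 0.981 FPKM in TXNDC9-KO, with overlapping groups. The pore-forming claudin CLDN2 did not exceed 0.0316 FPKM.

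Ratios between members that work together do not depend on how a library is scaled as a whole, but they do depend on the correction for length and GC content. They were computed within each library from the FPKM values, and are given with no test. The ratio of ITGAV to ITGB1 was 0.0222 and 0.0215 in WT and 0.0589 and 0.0619 in TXNDC9-KO, and that of ITGAV to ITGB5 was 0.0472 and 0.0434 against 0.243 and 0.253. The alpha chains ITGA5 and ITGA3 went the other way relative to ITGB1, from 0.0913 and 0.103 to 0.0373 and 0.0385 and from 0.231 and 0.285 to 0.131 and 0.126. For ITGA6 and ITGA1 the ratios to ITGB1 overlapped between groups. Among laminins, the gamma chain LAMC1 was 0.181 and 0.182 of the LAMA5 level in WT and 0.718 and 0.752 of it in TXNDC9-KO. The ratio of LAMB1 to LAMB2 was 0.467 and 0.472 in WT and 0.869 and 0.883 in TXNDC9-KO, so the beta chains came closer to equal levels although both had lower FPKM. The ratio of COL4A2 to COL4A1 was 5.34 and 5.85 in WT and 3.73 and 3.42 in TXNDC9-KO. The receptor DAG1 was 0.306 and 0.252 of its ligand chain LAMA5 in WT and 1.37 and 1.44 times it in TXNDC9-KO. The ratios of LAMC1 to LAMB2 (0.386 and 0.277 against 1.54 and 1.67) and of LAMC1 to LAMB1 (0.827 and 0.587 against 1.77 and 1.89) also lay under 1 in WT and above 1 in TXNDC9-KO. At the junctions, DSG2 to JUP was 0.0554 and 0.0572 against 0.144 and 0.152, and CTNND1 to CDH2 was 1.05 and 0.952 against 2.32 and 2.27. After the correction the log2 change of the ratio went from 1.39 to 0.21 for DSG2 to JUP, from −1.35 to −0.72 for ITGA5 to ITGB1, from 0.90 to 0.37 for LAMB1 to LAMB2 and from −0.64 to −0.28 for COL4A2 to COL4A1, and was −0.30 for ITGA3 to ITGB1. It stayed above 1 for ITGAV to ITGB5, LAMC1 to LAMA5 (1.22), LAMC1 to LAMB2 (1.54), LAMC1 to LAMB1 (1.17) and DAG1 to LAMA5 (2.04). For ITGAV to ITGB1 it went from 1.44 to 0.96, and for CTNND1 to CDH2 from 1.19 to 0.96. For ITGA6 to ITGB1 it went from −0.05 to −0.28, and for ITGA1 to ITGB1 from −0.22 to −0.87.

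**Figure D3:**
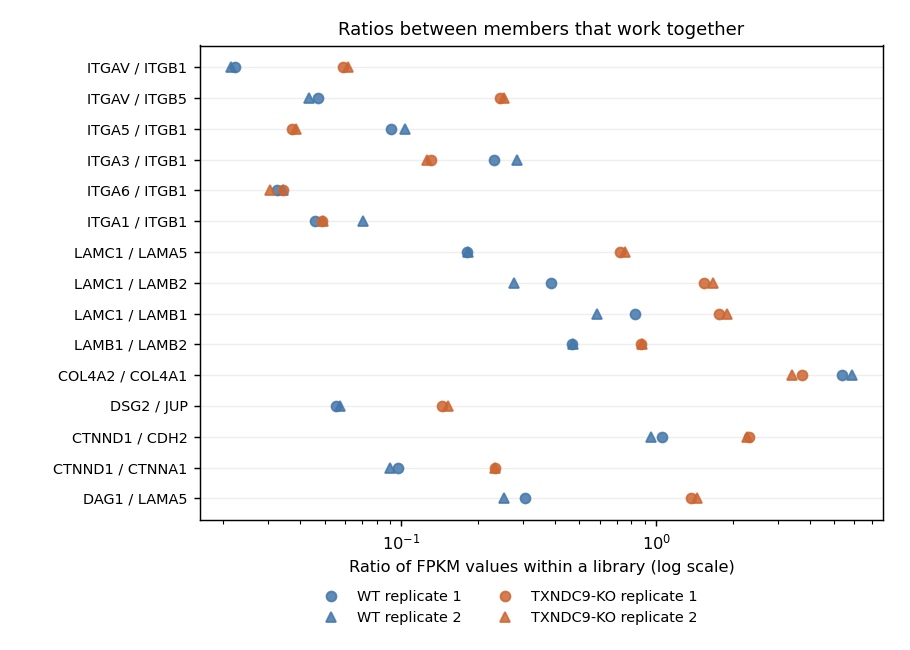
Ratio of the FPKM values of 15 pairs of members within each library, on a log scale, with WT in blue and TXNDC9-KO in orange, circles for replicate 1 and triangles for replicate 2. The pairs ITGA6 to ITGB1 and ITGA1 to ITGB1 overlap between groups, and the other 13 do not. Lack of overlap is common with 2 libraries in each group. Of all single genes tested, 40.1% had both TXNDC9-KO values above both WT values and 45.9% had both below.

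The log2 fold changes of the members varied with the GC content of their transcripts. Over the 34, the Spearman correlation of the log2 fold change was −0.74 with the GC content of the canonical transcript and 0.13 with its length, against −0.46 and 0.49 over the 13112 of the genes tested that have both. Genes share libraries and are not independent, so these are descriptions. Of the 18 members with a GC content above the median of all genes tested (48.55%), 5 had a positive and 13 a negative log2 fold change, with 1 called higher and 4 called lower. Of all genes of that GC content, 71.4% were negative, 5.99% were called higher and 24.9% lower, and the median was −0.51 against −0.31 for the members. Of the 16 members at or under it, 15 were positive and 1 negative, with 6 called higher and 0 called lower, and the median was 0.79. Of all genes of that GC content, 64.8% were positive, 22.5% were called higher and 5.45% lower, and the median was 0.36. The members called higher had GC contents from 38.3% (ITGAV) to 54.8% (DAG1) and those called lower from 59.5% (VTN) to 67.2% (COL18A1). Members are longer than most genes, with a median transcript of 5540 nt over the 34 against 2866 nt over all genes tested. The part of GC content in the changes was not tested beyond the correction below.

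**Figure D4:**
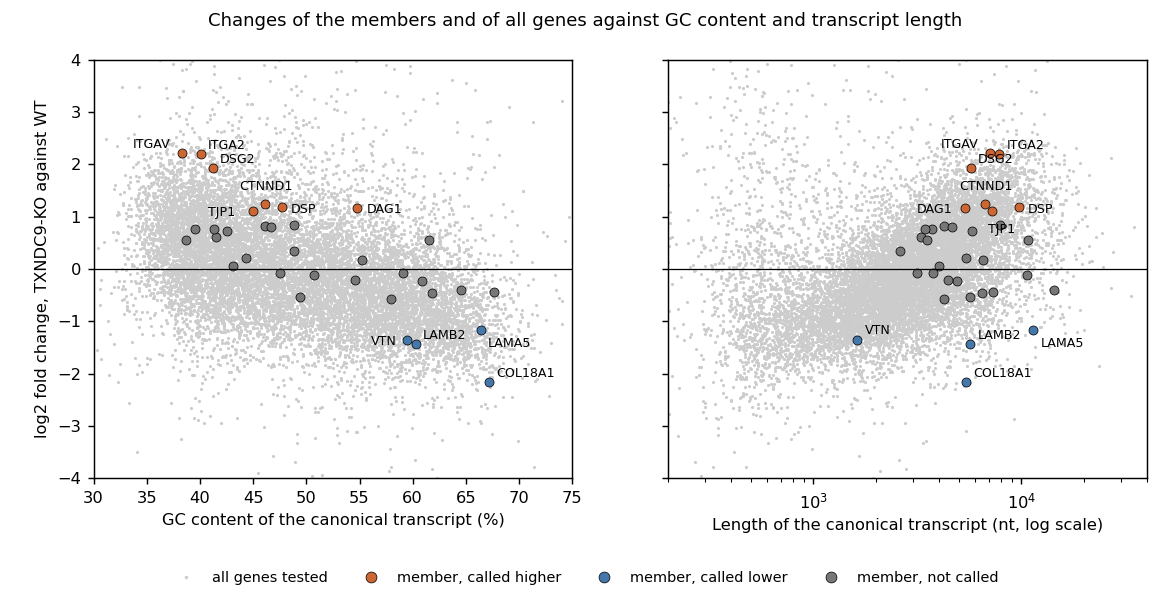
Log2 fold change against GC content (left, in percent) and length (right, in nt, log scale) of the canonical transcript, with all genes tested in grey and the 34 members coloured by call; genes beyond a log2 fold change of 4 either way lie outside the plotted range. The members called lower lie at 59.5% GC or more, while 6 of the 7 called higher lie at 47.7% or less.

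As an alternative, the deviation of each library's log2 values from each gene's mean over the 4 libraries was taken. A loess curve of these deviations on transcript length and GC content was then subtracted from that library's log2 values. ITGAV (1.25), DSG2 (1.19) and DAG1 (1.03) were then called higher, 8.82% of the 34 against 6.41% of all genes, and LAMA5 (−1.01), LAMB2 (−1.34) and COL18A1 (−1.67) were called lower, 8.82% against 7.39%. The 5 other calls (ITGA2, VTN, CTNND1, DSP and TJP1) kept their sign and were lost, and 0 called members reversed. The correlation with GC content was −0.46 over the 34 after the correction and −0.04 over all genes. The median of the 34 was 0.00, against −0.05 over all genes. Rescaling each library to the same sum, as TPM does, moved the median of all genes by 0.67, from −0.09 to 0.59, and that of the members to 0.96. On that scale 17 members (50%, against 33.1% of all genes) were called higher and only COL18A1 (2.94%, against 3.37%) lower. All 7 members called higher on FPKM were among the 17, joined by ITGA1, ITGA6, ITGB1, LAMC1, SDC2, SDC4, JUP, PKP2, CLDN1 and F11R.

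**Figure D5:**
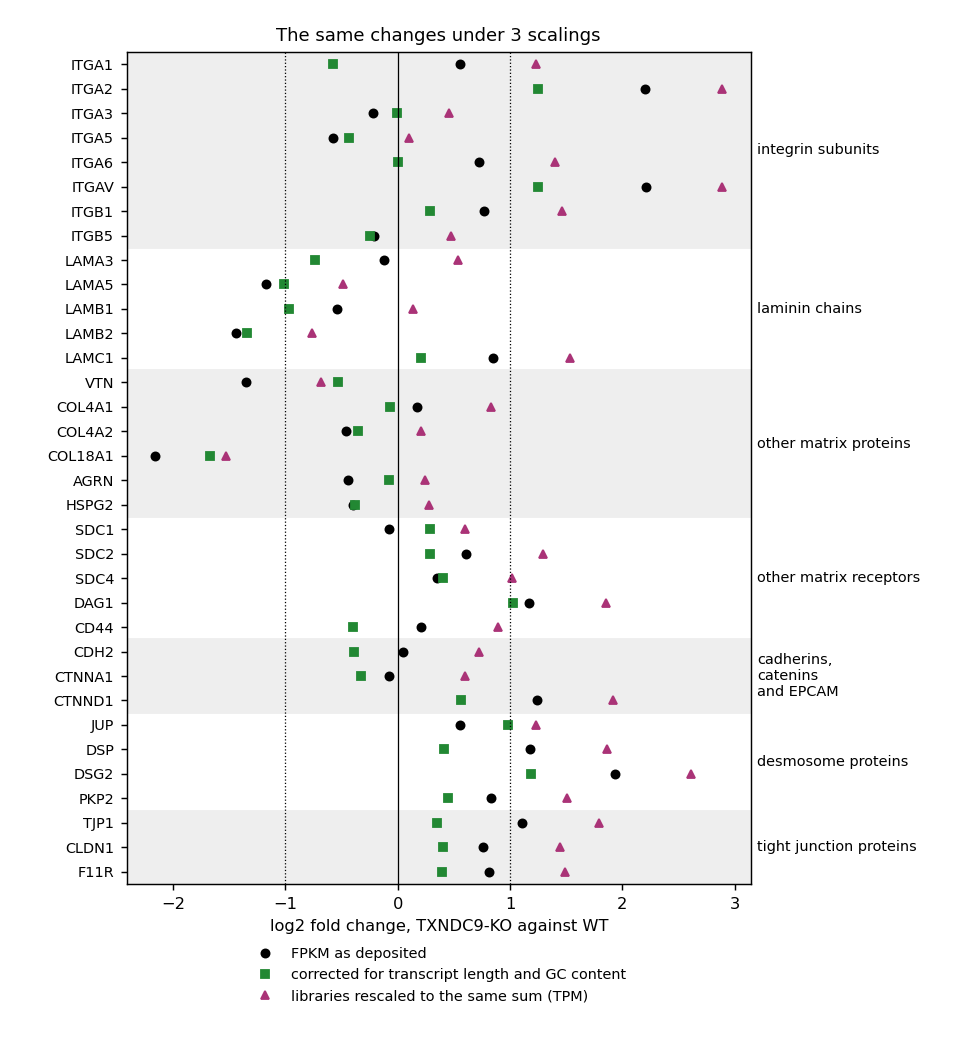
Log2 fold change of each tested member on FPKM as deposited (black circles), after that correction for length and GC content (green squares) and with libraries rescaled to the same sum (purple triangles); dotted lines mark a 2-fold change. ITGAV, DSG2, DAG1 and ITGA2 lie at or above 1.03 and COL18A1 at or below −1.53 on all 3 scales. ITGA2 was no call after the correction (1.25, adjusted p = 0.026 with limma and Benjamini-Hochberg adjustment). As TPM, 10 members with a negative value on FPKM lie above 0.

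A further 184 genes of the same machinery were examined, of which 107 were above the filter. They comprised 17 called higher (15.9%) and 18 called lower (16.8%), shares near those of all genes tested (14.2% and 15.3%), and their median log2 fold change was −0.05 (0.63 as TPM). Among 4 other integrin subunits tested of 18, the beta chain ITGB8, another partner of ITGAV, was 0.695 and 0.664 FPKM in WT and 5.55 and 5.64 FPKM in TXNDC9-KO. Its WT values were under the filter, so it entered the test only through the TXNDC9-KO values and had to differ. It was called higher with a log2 fold change of 2.87 (SE 0.19, adjusted p = 5.12e-04 with limma and Benjamini-Hochberg adjustment) and stayed called after the correction (1.81). The other 3 subunits were not called, including ITGAE (−0.35) and ITGB4 (−0.28), both positive as TPM (0.33 and 0.38).

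Of 27 tested adaptors that link integrins to actin, 3 were called higher and 5 lower, beside 14.2% and 15.3% of all genes tested. The adhesion protein LPP was 1.87 and 1.58 FPKM in WT and 9.53 and 8.48 FPKM in TXNDC9-KO (log2 fold change 2.32, SE 0.16). Filamin A (FLNA), which crosslinks actin and binds beta chains, was 593 and 894 FPKM in WT and 182 and 199 FPKM in TXNDC9-KO (log2 fold change −1.94, SE 0.22), and the focal adhesion protein zyxin (ZYX) was 128 and 149 FPKM against 40.7 and 42.7 FPKM (log2 fold change −1.72, SE 0.12). These 3 were called at adjusted p-values of 5.12e-04, 9.60e-04 and 5.12e-04 (limma with Benjamini-Hochberg adjustment), and after the correction zyxin was at −0.89, no longer a call. ACTN4, an alpha-actinin, was high in both groups, at 257 and 257 FPKM against 310 and 325 FPKM, and was not called.

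Of 23 other laminins, collagens and matrix proteins tested of 46, 4 were called higher and 6 lower. The shares over all genes tested were 14.2% and 15.3%. FBN2 (fibrillin-2) was 6.46 and 6.40 FPKM in WT and 27.2 and 31.4 FPKM in TXNDC9-KO (log2 fold change 2.17, SE 0.11), and PXDN, the peroxidase that crosslinks type IV collagen, was 12.5 and 8.61 FPKM against 39.2 and 39.0 FPKM (log2 fold change 1.91, SE 0.18). The anchoring fibril collagen COL7A1 was 60.3 and 95.5 FPKM against 21.2 and 20.5 FPKM (log2 fold change −1.86, SE 0.22). All 3 were called, and stayed so after the correction. The list also holds further laminin chains, given here after their values were seen because LAMC1 is the only gamma chain among the members. The gamma chain LAMC3 was called lower, at 13.8 and 18.9 FPKM against 4.19 and 4.66 FPKM (log2 fold change −1.84, SE 0.17), also after the correction (−1.77), and the beta chain LAMB3 was called lower (−1.07) but not after the correction (−0.82). The alpha chain LAMA1 was not called (log2 fold change 0.34, and −0.26 after the correction). FBLN1 (fibulin-1) and COL12A1 had the highest levels of the list and were not called, with log2 fold changes of −0.54 (0.14 as TPM) and 0.17 (−0.72 after the correction). Of 27 tested collagen and matrix processing enzymes, 4 were called higher and 5 lower, beside the same 14.2% and 15.3% of all genes. The sheddase ADAM10, which cleaves cadherins and CD44, was 8.47 and 8.38 FPKM in WT and 37.5 and 41.1 FPKM in TXNDC9-KO (log2 fold change 2.21, SE 0.10). The lysyl oxidase LOXL3 was 5.97 and 7.64 FPKM against 1.914 and 2.004 FPKM (log2 fold change −1.74, SE 0.17), and the protease inhibitor TIMP1 was 337 and 508 FPKM against 128 and 128 FPKM (log2 fold change −1.69, SE 0.21). The correction left TIMP1 at −0.91, which was no call. P4HB, a subunit of the collagen prolyl hydroxylase, was 538 and 668 FPKM against 310 and 329 FPKM, under 2-fold (log2 fold change −0.91, SE 0.16).

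Of 26 tested other junction proteins, 5 were called higher and 2 lower, beside 14.2% and 15.3% of all genes tested. Their median log2 fold change was 0.26 (0.00 after the correction). Afadin, listed under its older symbol MLLT4, was 2.12 and 1.54 FPKM in WT and 5.34 and 6.18 FPKM in TXNDC9-KO (log2 fold change 1.62, SE 0.21). The polarity scaffold PALS1, listed as MPP5, was 13.9 and 12.96 FPKM against 32.6 and 36.0 FPKM (log2 fold change 1.35, SE 0.11). Neither stayed called after the correction (0.91 and 0.54). CTNNB1 (beta-catenin), the catenin that binds CDH2 directly, was 56.5 and 53.2 FPKM against 93.2 and 95.3 FPKM, under 2-fold (log2 fold change 0.78, SE 0.10). CTNNAL1, a relative of CTNNA1, was 83.2 and 113 FPKM against 50.3 and 52.1 FPKM (log2 fold change −0.92, SE 0.16), under 2-fold and so not called on FPKM, but called lower after the correction (−1.02).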

How the data were processed

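Polyadenylated RNA of 2 WT and 2 TXNDC9-KO libraries was sequenced on an Illumina instrument. Per the submitters' processing notes and the study's methods, the authors mapped reads to hg38 with TopHat2 and an Ensembl annotation and deposited the FPKM of every gene in each library, as Cuffdiff of the Cufflinks suite gave them. Their versions, the normalization of libraries and whether strand was used are not given in the sources used here. Columns holding the authors' group means, fold changes, p-values and q-values were not used. The table had 231916 lines, of which 57979 held values. Identifiers each occurred 4 times, out of register with symbols and values, and were put back in order. The symbol then matched a current or older name for 34949 of 56935 identifiers (61.4%), against 1 as deposited. For every member the identifier bore the member's own symbol in GENCODE. Transcript lengths and GC contents rest on this order. No step worth 1 read was found, since at most 4.53% of genes under 0.03 FPKM shared a ratio between libraries.

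Genes with a mean above 1 FPKM were compared on log2(FPKM + 0.1) in limma 3.58.1 under R 4.3.3, using all 4 libraries, a prior variance that followed a trend, no replicate block and Benjamini-Hochberg adjustment over 13246 genes. Calls needed a 2-fold change at an adjusted p under 0.01. Positions, overlaps, lengths and GC content came from GENCODE release 44, promoter sequences from RefSeq (GRCh38.p14). The alternative correction used loess curves with a span of 0.3. The fit was tested on simulated data. Other steps ran in Python 3.11.15 with numpy 2.4.6, pandas 2.3.3, scipy 1.17.1 and matplotlib 3.10.9.

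Members and lists were chosen with earlier results of these data known. All 43 members are named, and of each related list the 3 called genes with the largest change and the 2 with the highest level, and of each marker list the genes above 1 FPKM on average, apart from 1 item that is not reported here. Gene lists were described by counts and medians.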

Additional observations from a re-analysis of the deposited data

How the results depend on the processing

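A pseudocount of 1 or 0.01, no filter, a filter at 5 FPKM, no trend, an adjusted p under 0.05, and summing lines of a repeated symbol changed no sign and no call among the members tested under each. Neither did the replicate block, which again gave 7 members called higher and 4 lower. The deviations of same-numbered libraries from their groups correlated at −0.0904 over the genes tested, and the numbers were not taken to pair libraries. Rescaling to TPM gave 17 and 1 members called higher and lower, 4380 and 447 genes, 37 and 7 related genes and a member median of 0.96, and reversed TXNDC9 (0.12), ITGA3 (0.46), ITGA5 (0.10), ITGB5 (0.47), LAMA3 (0.54), LAMB1 (0.14), COL4A2 (0.21), AGRN (0.24), HSPG2 (0.28), SDC1 (0.60) and CTNNA1 (0.60), none of them called on FPKM. A rescaling shifts nearly all genes alike. The length and GC correction gave 3 members called higher, 841 and 969 genes, 10 and 8 related genes and a member median of 0.00, and reversed ITGA1 (−0.58), COL4A1 (−0.07), SDC1 (0.29), CD44 (−0.40) and CDH2 (−0.39). With the replicate block as well, these values were the same except for 975 genes called lower. Centring on the median took the member median to 0.13, reversed CDH2 (−0.10) and ended the call of TJP1. The member median was 0.19 with no filter and 0.45 with the filter at 5 FPKM, which left 1220 genes called higher. When libraries were left out one at a time, members called higher ranged from 0 to 7 and lower from 0 to 4, all genes called higher from 0 to 2136 and lower from 0 to 2633, related genes called higher from 0 to 19 and lower from 0 to 19, and the member median from 0.21 to 0.43. The counts of 0 came with a TXNDC9-KO library left out, when 7129 (without replicate 1) and 7307 (without replicate 2) of the 13246 genes had an unadjusted p under 0.05 in limma. Over these fits LAMA3 ranged from −0.26 to 0.02, SDC1 from −0.18 to 0.02 and CD44 from 0.00 to 0.42, and these changed sign, LAMA3 without WT replicate 2, SDC1 without WT replicate 2 (0.02) or TXNDC9-KO replicate 1 (0.00), and CD44 without WT replicate 1. The cause of these changes was not tested. FPKM keeps no depth, so no limit of detection can be given.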

Other observations

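The regulators of the epithelial-mesenchymal transition, a program that lowers epithelial cadherins and junction proteins, did not share a direction. Vimentin (VIM), the intermediate filament protein of mesenchymal cells, was 774 and 908 FPKM in WT and 364 and 379 FPKM in TXNDC9-KO. It was called lower, with a log2 fold change of −1.17 (SE 0.15, adjusted p = 0.00139 with limma and Benjamini-Hochberg adjustment), and was at −0.49 as TPM and −0.76 after the correction for length and GC content, both under 2-fold. ZEB1, a repressor of CDH1, was 1.59 and 1.61 FPKM against 4.65 and 4.15 FPKM and was called higher (log2 fold change 1.40, SE 0.17), but not after the correction (0.56). SNAI2 had a log2 fold change of −0.90 and ZEB2 of 0.96 (−0.11 after the correction), and neither was called. TWIST1 (−0.64) and TWIST2 (−0.77) were not called, and both were near 0 after the correction, at 0.08 and 0.04.

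Of the 5 stellate cell and fibroblast markers above 1 FPKM, PDGFRB, a growth factor receptor, was called higher, at 1.08 and 0.735 FPKM in WT and 3.004 and 2.617 FPKM in TXNDC9-KO (log2 fold change 1.55, SE 0.27). Its WT mean was under 1 FPKM, so it entered the test only through the TXNDC9-KO values and had to differ, as did CDH5 below. The fibrillar collagens COL1A1 (31.4 and 22.8 FPKM against 20.7 and 17.5 FPKM) and COL3A1 (19.4 and 24.0 FPKM against 13.4 and 13.1 FPKM) were not called, with log2 fold changes of −0.49 (0.19 as TPM) and −0.70 (−0.02 as TPM). ACTA2 was at −0.29 (0.38 as TPM) and DCN at −0.39 (0.24 as TPM), neither of them called. CDH5, the cadherin of endothelial junctions, was 0.751 and 1.07 FPKM in WT and 4.26 and 3.14 FPKM in TXNDC9-KO and was called higher (log2 fold change 1.92, SE 0.27), also after the correction (1.93). The leukocyte marker CD68, also made in other cells, was 3.38 and 5.16 FPKM against 5.77 and 6.90 FPKM and was not called (log2 fold change 0.58, SE 0.23).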
